A study of Mus musculus with 42 samples.

Results

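The genes described here are 8 transcription factors and cofactors of epibranchial placodes and visceral neurons, Phox2a, Tbx2, Tbx3, Tlx2, Eya1, Eya2, Eya4 and Six4. Their members are the probe sets that the platform annotation assigns to exactly 1 of these symbols, 13 of 12488 probe sets on the MG-U74Av2 array and 20 of 45101 on the Mouse430_2 array. They are 8 of 8252 and 8 of 18194 gene symbols on these arrays. A probe set is a group of short oligonucleotides on an Affymetrix array meant to read 1 transcript, though some may read several. Some member names carry a letter before the final _at, such as Tbx3 1437479_x_at, Eya1 94706_s_at and Six4 93000_g_at. Whether these read 1 transcript alone was not checked. Tbx3 had 1 probe set on MG-U74Av2 and 5 on Mouse430_2, Six4 had 3 and 4, Eya1 had 2 and 3, Eya4 had 1 and 4, Tbx2 had 3 and 1, and Phox2a, Tlx2 and Eya2 had 1 on each array.

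The study compared gene expression of nodose ganglion (NG) with that of dorsal root ganglion (DRG) in mice of the inbred strain BALB/c, kept under standard housing with no treatment named. In 3 experiments it used 42 arrays: captured NG (n = 11) and DRG (n = 9) neurons on Mouse430_2, captured NG (n = 5) and DRG (n = 5) neurons on MG-U74Av2, and whole NG (n = 7) and DRG (n = 5) on MG-U74Av2. Captured samples pooled neurons cut from tissue sections by a laser, which the series describes as visceral sensory neurons. The sources used here name neither the way these cells were picked nor the age and sex of the mice. Labels of the whole ganglia contradict each other, since their descriptions name laser capture while their extraction protocol and the design text name whole ganglia, and here they are taken as whole ganglia. Whether each sample is a different mouse is not stated, so a p-value here reflects spread among the arrays at hand, part of which may be technical.

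As background, the NG holds the cell bodies of vagal sensory neurons that serve the viscera. In vertebrate embryos these neurons come from epibranchial placodes, thickenings of the ectoderm, whereas DRG neurons come from the neural crest. Eya proteins, which are both coactivators and phosphatases, act early in placodes together with homeodomain partners such as Six4. Homeodomain proteins such as Phox2a then set the visceral identity of neurons, and T-box and Tlx factors act in several sensory and autonomic lineages.

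Of the 8 genes, Phox2a, Eya4 and Six4 were matched to RefSeq promoter sequences (build GRCm38.p6). The 250 bases before the annotated start are shown for Phox2a, the factor most closely tied to visceral identity here, and for Six4, whose probe sets disagreed. Phox2a lies at chr7:101818063-101818312 on the plus strand and Six4 at chr12:73113246-73113495 on the minus strand. Six4 has 2 annotated starts, and the window with a motif match is the one shown. Capitals mark the GAAACCTGA match described after the sequences.
Phox2a: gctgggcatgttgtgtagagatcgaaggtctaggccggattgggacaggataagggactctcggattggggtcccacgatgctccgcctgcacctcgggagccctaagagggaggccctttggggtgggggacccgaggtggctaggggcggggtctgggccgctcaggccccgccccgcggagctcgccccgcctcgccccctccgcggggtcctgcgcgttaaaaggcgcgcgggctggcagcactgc
Six4: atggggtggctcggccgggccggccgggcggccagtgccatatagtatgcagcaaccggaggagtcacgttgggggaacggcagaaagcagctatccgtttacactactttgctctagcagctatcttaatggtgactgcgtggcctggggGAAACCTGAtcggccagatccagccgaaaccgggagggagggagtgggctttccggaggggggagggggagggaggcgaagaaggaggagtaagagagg

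Both strands of these windows were searched for 4 motifs that were chosen after the sequences had been seen: the MEF3 site TCAGGTTTC, known as a binding site of Six4, the T-box element AGGTGTGA, the TATA box TATAAA and the E-box CANNTG. The Six4 window held the MEF3 site on the opposite strand, as GAAACCTGA, 99 to 91 bases before the start. Of 32851 promoter windows of the same length, 0.387% held that motif, against 1.12% for the T-box element, 12.4% for the TATA box and 66.2% for the E-box. The Phox2a window held none of the 4. The GC content was 70.4% for the Phox2a window and 62% for the Six4 window shown, against a median of 52.4% over all windows. A match is a run of letters and was not tested as a site.

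Values are MAS5 signals, which are array brightness on a linear scale, scaled so that the arrays of one type share a trimmed mean. Before scaling, the trimmed mean of an array ran from 84.2 to 200.5 on Mouse430_2. On MG-U74Av2 it ran from 187.7 to 274.5 with captured neurons. With whole ganglia it ran from 286 to 344.5 in DRG and from 174.9 to 408.3 in NG. The 408.3 was NG array 39, and the next highest NG array was at 254.2. Of the nodose neuron markers tested, all 7, 5 and 5 in these experiments were higher in NG. Of the trunk DRG markers, mostly Hox genes, 6 of 7, 2 of 4 and 4 of 5 were higher in DRG. These lists were chosen with earlier results of these data known, so they are not an independent check of the labels. Captured arrays had Actb 3′ to 5′ log2 ratios of 4.88 to 6.20, against 2.26 to 3.44 in whole ganglia, a sign of RNA read mainly from its 3′ end. The whole NG array of sample number 73 stood apart on the first principal component (7.07, against 16.6 to 24.0 for the other NG arrays). All 10 captured samples on MG-U74Av2 correlated best with the Mouse430_2 array of the same ganglion and number (r = 0.221 to 0.522). Only the 5 numbers per ganglion found on both array types were compared. The labels do not say that samples are shared. Both captured experiments are treated here as sharing samples, and so as not independent.

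To be tested, a probe set had to exceed the 40th percentile of an array, and to do so on a number of arrays no lower than the size of the smaller group. Signals are compared as log2(signal + pseudocount) with limma, all differences are NG minus DRG unless stated, and an adjusted p below 0.05 counts as passing. On this scale the differences of dim probe sets are understated. In bulk samples, fewer cells of a type and less RNA per cell cannot be told apart. Of the members, 10 of 20 were tested on Mouse430_2, 10 of 13 in captured neurons on MG-U74Av2 and 9 of 13 in whole ganglia. As a gauge of background, 80 probe sets of olfactory and vomeronasal receptor genes on Mouse430_2 had a 90th percentile of 33.4 to 70.9 on NG arrays and 28.6 to 67.7 on DRG arrays, and 34 such probe sets on MG-U74Av2 had one of 60.04 to 106. The DRG signals of Phox2a 1418620_at, Tbx3 1437479_x_at, Eya1 1457424_at and Tbx3 103538_at lie within or close to these ranges, as do captured signals of Eya2 104292_at, Six4 92999_at and 93000_g_at, so their differences are not exact folds.

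**Figure D1:**
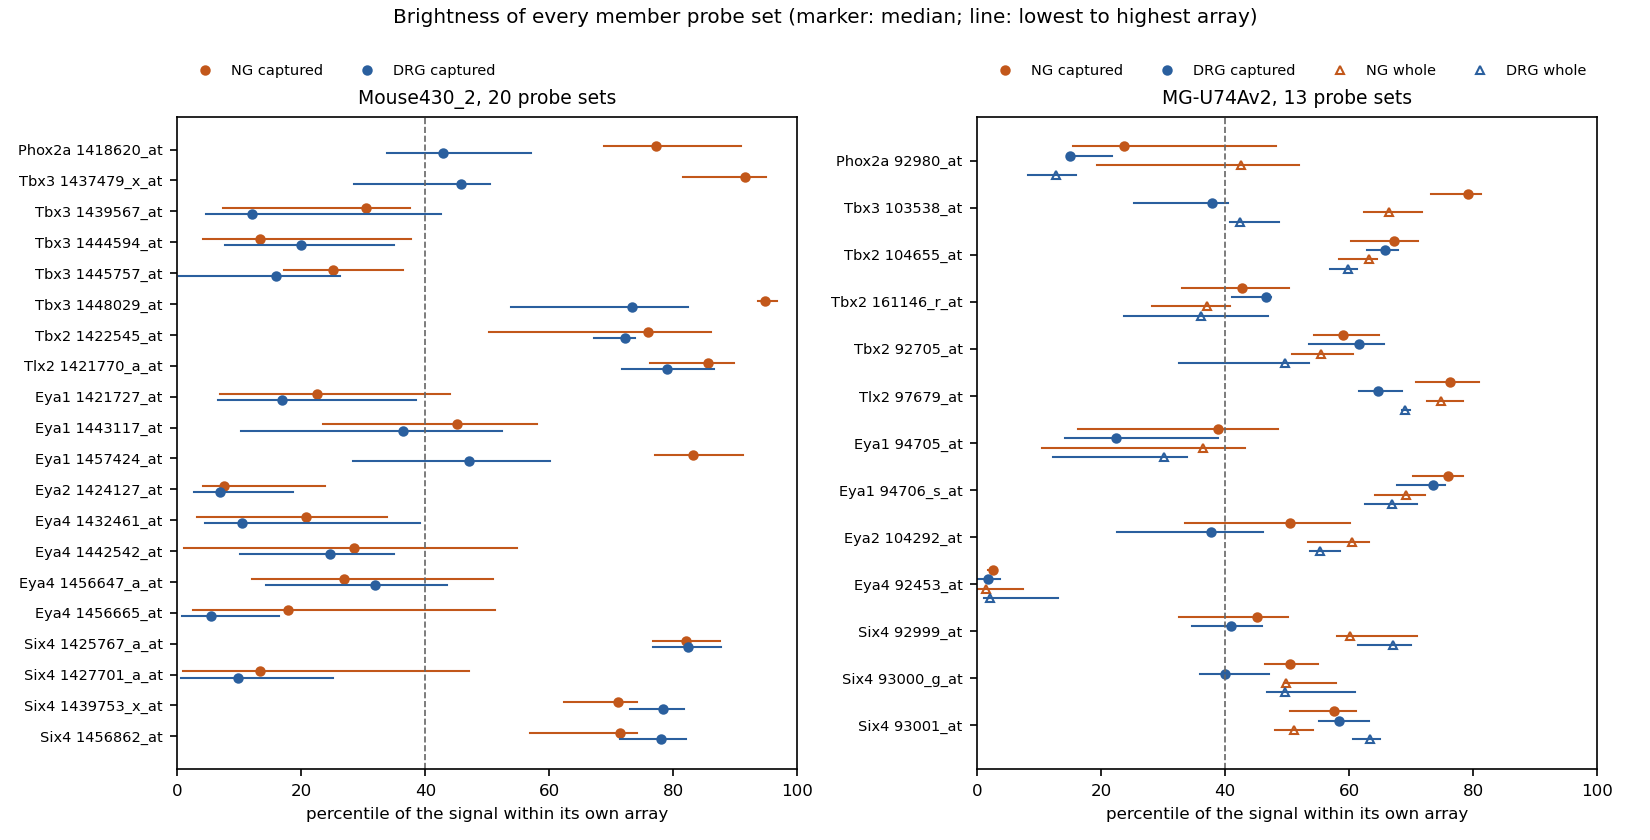
Percentile of each member probe set within its own array (horizontal axis, percent) for the 20 probe sets on Mouse430_2 (left) and the 13 on MG-U74Av2 (right). Markers are group medians, lines run from the lowest to the highest array, orange is NG and blue is DRG, filled circles are captured neurons and open triangles whole ganglia. The dashed line is the 40th percentile used to choose probe sets for testing; all 5 Eya4 probe sets and 3 of 5 Tbx3 probe sets on Mouse430_2 have medians below it.

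Markers of other cells differed between the ganglia in the same samples, and so in every member comparison between NG and DRG. The summed signal of 8 skeletal muscle genes was 232 to 423 in captured NG and 128 to 299 in captured DRG on Mouse430_2, 629 to 760.1 in captured NG and 363 to 609 in captured DRG on MG-U74Av2, and 542 to 2386 in whole NG and 303 to 814 in whole DRG. Of those tested, 1 of 4, 1 of 5 and 2 of 4 passed, all higher in NG and led by the light chain gene Myl1. Satellite glia and Schwann cell genes were lower in captured NG: the sum of 9 on Mouse430_2 was 8740 to 11290 in NG and 9804 to 12910 in DRG, and that of 8 on MG-U74Av2 was 10360 to 11360 in captured NG and 11740 to 14300 in captured DRG, and 13040 to 15900 in whole NG and 11160 to 13920 in whole DRG. On Mouse430_2, 4 of 9 tested were higher in DRG and 1, Cnp, in NG, and in captured neurons on MG-U74Av2 3 of 7 were higher in DRG, among them Gja1, a gap junction protein of satellite glia, at -2.28 (SE 0.274, adjusted p = 3.58e-05). The fibroblast sum of 8 genes was 1133 to 2414 in NG and 1972 to 4455 in DRG on Mouse430_2. Of 10 endothelial and mural genes the sum was 705 to 1433 in captured NG and 1280 to 2647 in captured DRG on Mouse430_2, and 895 to 1293 in whole NG and 720.3 to 959 in whole DRG. In whole ganglia 4 of 8 tested were higher in NG and 1 in DRG, and on Mouse430_2 2 of 8 were higher in each ganglion. The macrophage sum of 8 genes was 624.6 to 775 in whole NG and 407 to 659.9 in whole DRG, where 2 of 6 tested were higher in NG. The summed signal of 9 neuron genes was 26700 to 36660 in whole NG and 27530 to 29540 in whole DRG. Of those tested there, 3 of 9 were higher in NG and 1 in DRG (0 and 2 with no scaling). In captured neurons on MG-U74Av2 the sum was 31750 to 37470 in NG and 29460 to 31800 in DRG. There 0 of 8 tested passed, and on Mouse430_2 3 of 10 were higher in NG and 2 in DRG. The part of these cells and of neuron content in the member differences was not tested.

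Tbx3, a T-box repressor, was the member with the largest nodose difference in all 3 experiments. On Mouse430_2, 1448029_at had signals of 793 (lowest), 972 (median) and 1468 (highest) in captured NG neurons, against 41.5, 121 and 215 in captured DRG neurons. All 11 NG arrays were above all 9 DRG arrays. The log2 difference was 3.32 (SE 0.216, adjusted p = 5.5e-12). The second bright probe set, 1437479_x_at, had signals of 200.3, 563 and 1021 in NG, against 14.3, 27.8 and 43.0 in DRG, again with no overlap. Its log2 difference was 4.05 (SE 0.244, adjusted p = 1.13e-12). Over the 20 arrays both probe sets correlated with r = 0.922, and r = -0.003 after each ganglion's mean was subtracted. So these probe sets shared the difference between ganglia and not the spread among arrays of one ganglion. The other Tbx3 probe sets, 1439567_at, 1444594_at and 1445757_at, were too dim to be tested, with medians of 4.46 to 11.7 in NG and 5.08 to 6.54 in DRG.

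On MG-U74Av2 the Tbx3 probe set 103538_at had signals of 393, 239, 296, 409 and 356 in captured NG neurons, against 33.1, 24.7, 15.9, 34.5 and 40.7 in captured DRG neurons. The lowest NG array was well above the highest DRG array, and the log2 difference was 3.11 (SE 0.21, adjusted p = 1.17e-07). In whole ganglia its signals were 148 (lowest), 179 (median) and 240.0 (highest) in NG, against 42.2, 39.4, 44.7, 50.1 and 67.1 in DRG. Groups did not overlap here either, and the log2 difference was 1.69 (SE 0.146, adjusted p = 1.05e-07). Ordered by mean signal, Tbx3 was highest in captured NG (339 ± 70.6, SD, n = 5), then in whole NG (184 ± 34.2, n = 7), and lower in whole DRG (48.7 ± 11.0, n = 5) and captured DRG (29.8 ± 9.65, n = 5). Captured and whole arrays overlapped within each ganglion. Both DRG groups were at or near the background gauge, so the order between them was not established.

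The nodose difference of Tbx3 was larger in captured neurons than in whole ganglia by 1.40 on the log2 scale (SE 0.253, adjusted p = 0.000292), in a fit of the 4 groups on MG-U74Av2. Captured NG exceeded whole NG by 0.84 (SE 0.172, adjusted p = 0.000189), and the fitted difference of captured minus whole DRG was -0.56 (SE 0.185, adjusted p = 0.014), between levels at or near background. The DRG call was lost without captured DRG array 8 or whole DRG array 84, with an adjusted p of up to 0.0612. Of the 11 members tested for this interaction, Tbx3 was the 1 that passed, against 18.2% of all probe sets tested. Capture, RNA amplification and 3′ bias differ together between these experiments and cannot be told apart.

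**Figure D2:**
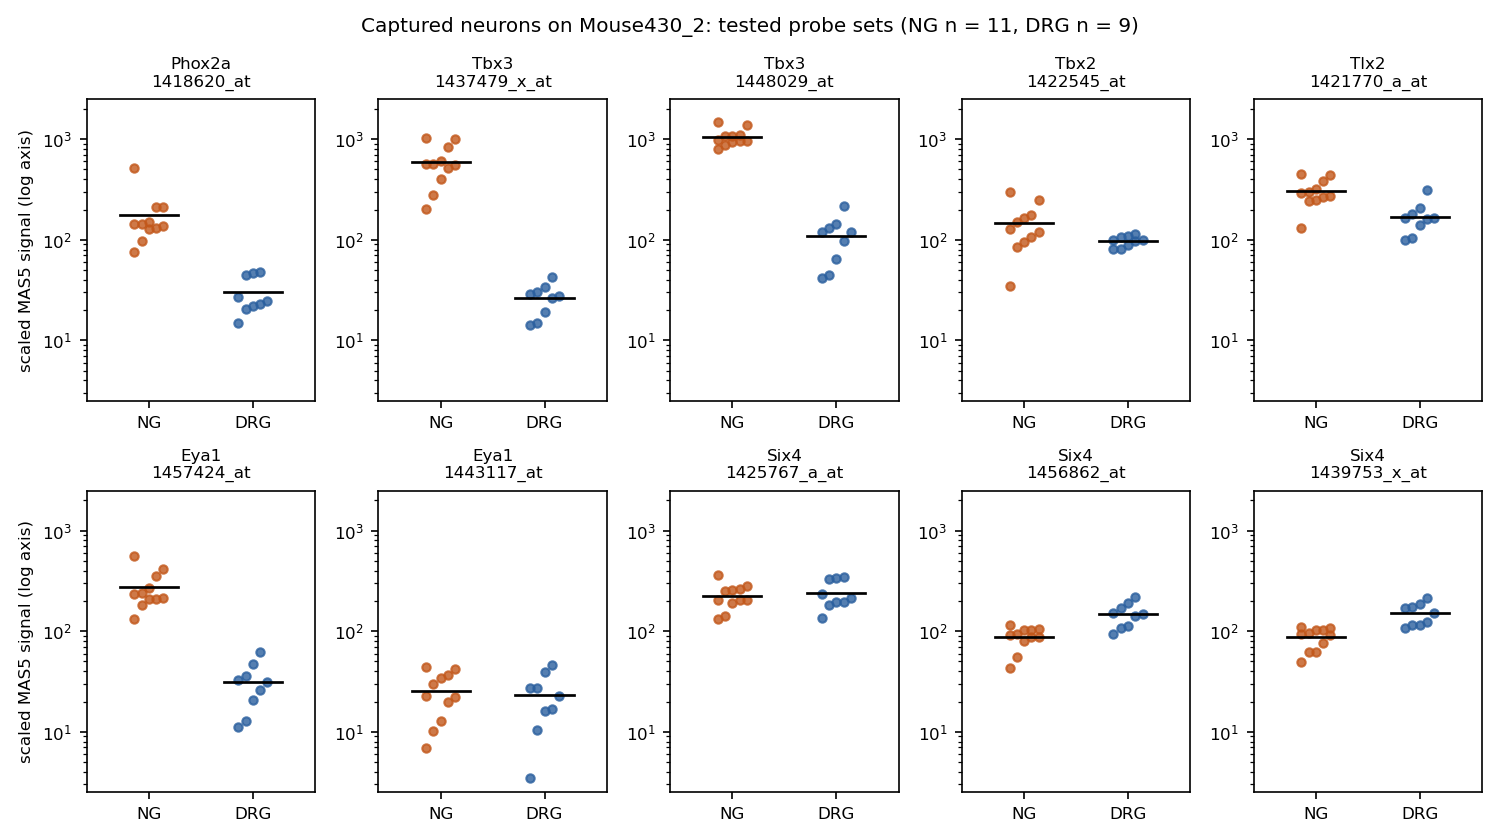
Signal of the 10 member probe sets tested in captured neurons on Mouse430_2, on a log axis in scaled MAS5 units, with 1 point per array (orange NG, n = 11; blue DRG, n = 9) and the arithmetic mean as a line. NG lies above DRG with no overlap for Phox2a 1418620_at, both Tbx3 probe sets and Eya1 1457424_at, while the 3 Six4 probe sets overlap.

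Tbx2, the closest relative of Tbx3 and likewise a repressor, did not pass in captured neurons. On Mouse430_2, 1422545_at had signals of 34.9, 127 and 300.5 in captured NG neurons, against 81.2, 100.1 and 114 in captured DRG neurons. The NG arrays spread around the narrow DRG range, and the log2 difference of 0.38 (SE 0.243) did not pass (adjusted p = 0.298). It passed when NG array 8, the lowest, was left out (adjusted p = 0.0437). In captured neurons on MG-U74Av2 the log2 differences of 104655_at, 92705_at and 161146_r_at were 0.05, -0.01 and -0.17, with adjusted p from 0.616 to 0.974.

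In whole ganglia 2 Tbx2 probe sets passed with small differences. For 104655_at the signals were 122 to 167 in NG (median 142), against 101, 117, 125, 107 and 116 in DRG, a log2 difference of 0.31 (SE 0.111, adjusted p = 0.0374). This call was lost in 8 of 12 fits that each left out 1 array, with adjusted p up to 0.0986, and held only without NG array 26, 36 or 73 or DRG array 37. It was also lost with no filter on dim probe sets (adjusted p = 0.0545), with quantile or median scaling (0.149 and 0.177) and in the joint fit of 4 groups (0.122), and the difference was -0.031 when arrays were not scaled. For 92705_at the signals were 74.9 to 122 in NG (median 104), against 67.9, 23.9, 70.02, 51.4 and 85.7 in DRG, a log2 difference of 0.65 (SE 0.21, adjusted p = 0.0227). Without DRG array 26, the lowest, its adjusted p was 0.0732, and with no scaling the difference was 0.33 (adjusted p = 0.344). The third probe set, 161146_r_at, was too dim to be tested in whole ganglia.

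Phox2a, a homeodomain factor of autonomic and visceral neurons, was measured well only on Mouse430_2. There 1418620_at had signals of 75.6 (lowest), 142 (median) and 511 (highest) in captured NG neurons, against 15.1, 24.5 and 47.6 in captured DRG neurons. No DRG array reached the lowest NG array. The log2 difference was 2.18 (SE 0.251, adjusted p = 1.94e-07), and it passed in all 20 fits that left out 1 array. The single highest value came from NG array 5, and the next highest was 211.

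On MG-U74Av2 the Phox2a probe set 92980_at was dim. In whole NG its signals were 49.995, 58.4, 21.9, 86.5, 22.2, 50.9 and 10.6, against 6.25, 7.14, 4.90, 7.79 and 6.05 in whole DRG. Every NG array was above every DRG array, but only 4 of 7 NG arrays and 0 of 5 DRG arrays passed the brightness limit. So the probe set was not tested in the fit of whole ganglia alone. It entered the joint fit of 4 groups through NG arrays only, so its entry was not separate from its difference. In that limma fit NG was higher in whole ganglia (adjusted p = 0.00096), and the captured difference did not pass (adjusted p = 0.346). The whole DRG signals were below the median of the receptor probe sets, which was 11.0 to 16.9 on these arrays, so no size is given for the difference. In captured NG neurons its signals were 11.6, 7.85, 14.4, 13.1 and 55.4, against 10.8, 7.30, 12.8, 8.19 and 8.50 in captured DRG neurons. There 1 NG array, number 14, was bright and the other 4 overlapped the DRG arrays.

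**Figure D3:**
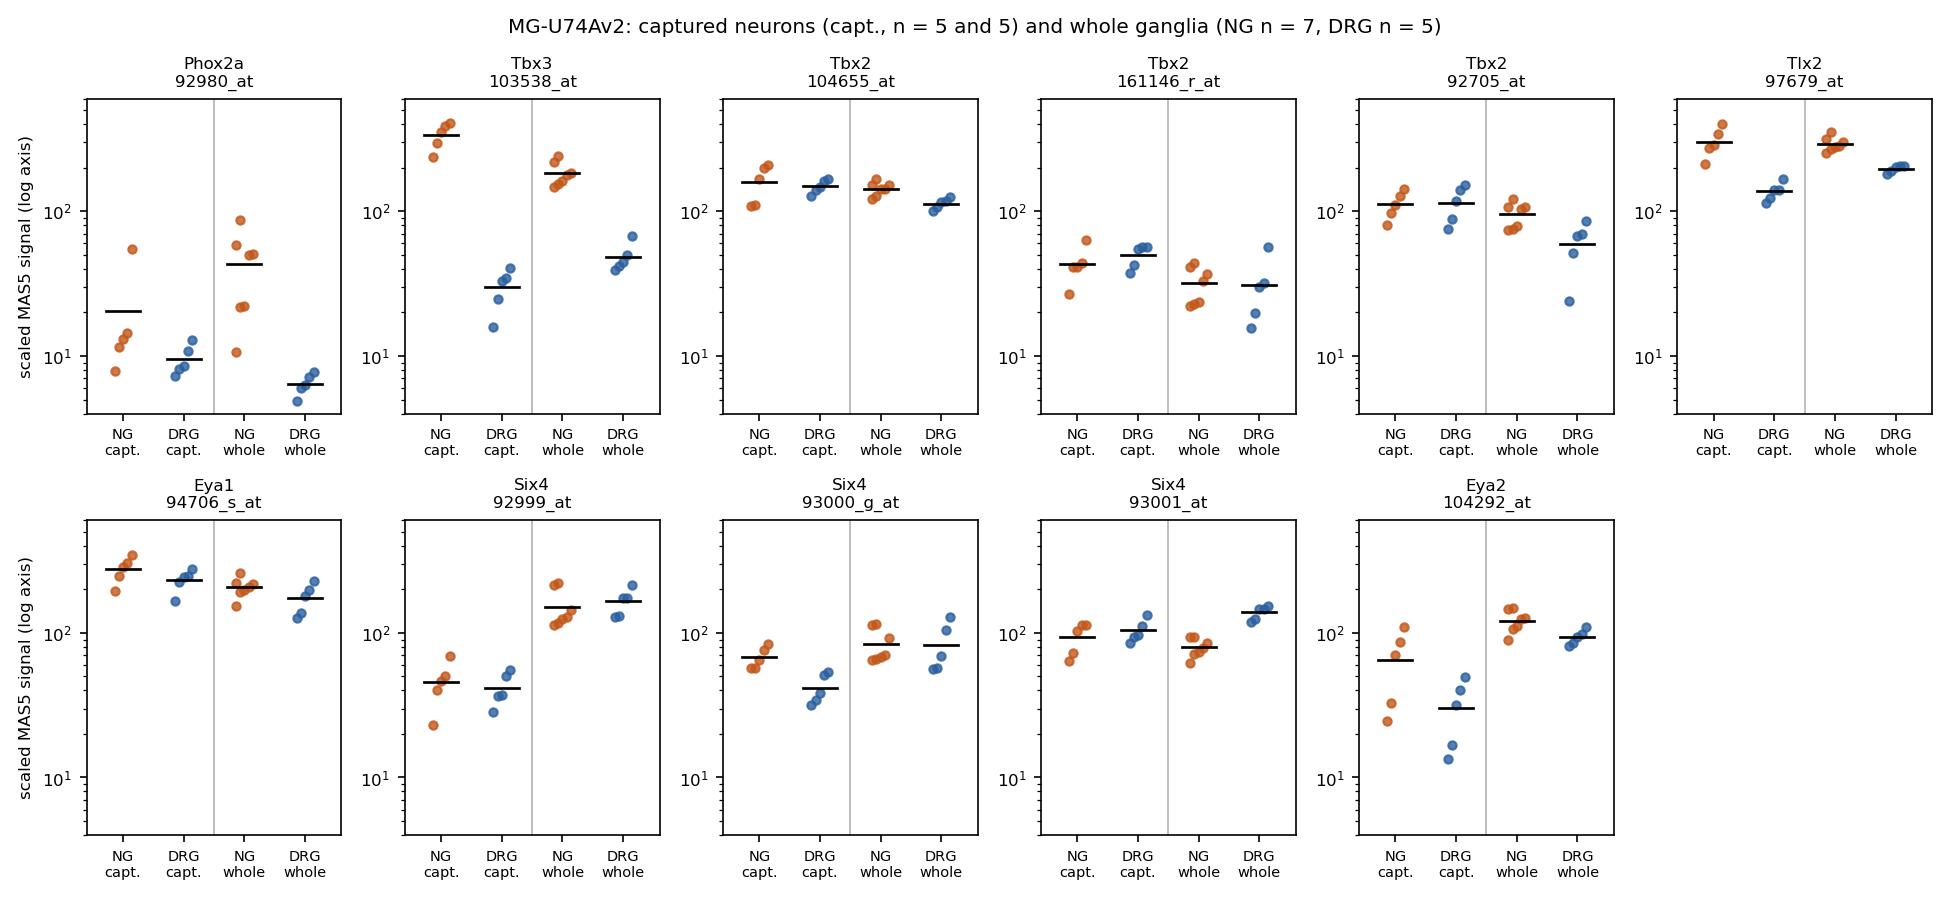
Signal of the 11 member probe sets tested in the joint fit on MG-U74Av2, on a log axis in scaled MAS5 units, with 1 point per array and the arithmetic mean as a line, in captured NG (n = 5), captured DRG (n = 5), whole NG (n = 7) and whole DRG (n = 5). Tbx3 103538_at and Tlx2 97679_at separate NG (orange) from DRG (blue) both in captured neurons and in whole ganglia, and Six4 92999_at and Eya2 104292_at are lower in captured neurons.

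Tlx2, a homeobox factor known for its role in enteric neurons, was higher in NG in each experiment. On MG-U74Av2 the signals of 97679_at were 212, 400, 289, 343 and 272 in captured NG neurons, against 167, 114, 141, 140 and 124 in captured DRG neurons. In whole ganglia they were 253 (lowest), 284 (median) and 357 (highest) in NG, against 206, 191, 205, 180 and 203 in DRG. Neither pair of groups overlapped. The log2 difference was 1.06 (SE 0.177, adjusted p = 0.000595) in captured neurons and 0.55 (SE 0.104, adjusted p = 0.000515) in whole ganglia. The second call was lost when arrays were not scaled (0.19, adjusted p = 0.602).

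On Mouse430_2 the Tlx2 probe set 1421770_a_at had signals of 130 (lowest), 293 (median) and 447 (highest) in captured NG neurons, against 99.04, 163 and 313 in captured DRG neurons. The ranges overlapped, and the log2 difference was 0.81 (SE 0.203, adjusted p = 0.00396). It was 0.72 (adjusted p = 0.087) over the 6 NG and 4 DRG sample numbers that were not also on MG-U74Av2. Ordered by mean on MG-U74Av2, captured NG (303 ± 71.5) and whole NG (295 ± 34.1) did not differ beyond their spread (log2 difference 0.02, adjusted p = 0.922). Whole DRG (197 ± 11.1) came next, and captured DRG (137 ± 20.2) was lower than whole DRG by -0.50 (SE 0.143, adjusted p = 0.00552). The larger nodose difference in captured neurons (0.51, SE 0.194) did not pass (adjusted p = 0.0672), except without captured NG array 3 or captured DRG array 3 (adjusted p down to 0.0152), with the same median on every array (0.64, adjusted p = 0.0302) or with array weights (0.50, adjusted p = 0.0491).

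Eya1, a coactivator whose loss in humans causes branchio-oto-renal syndrome, gave different answers by probe set. On Mouse430_2, 1457424_at had signals of 131 (lowest), 236 (median) and 563 (highest) in captured NG neurons, against 11.2, 31.2 and 62.7 in captured DRG neurons. All NG arrays were above all DRG arrays, with a log2 difference of 2.87 (SE 0.248, adjusted p = 1.09e-09). A second probe set, 1443117_at, had signals of 6.84, 22.7 and 44.3 in NG, against 3.49, 22.4 and 45.9 in DRG. Its difference of 0.14 (SE 0.284) did not pass (adjusted p = 0.789). These signals lay within or below the background gauge, and 7 of 11 NG and 4 of 9 DRG arrays exceeded the brightness limit. At that level the probe set cannot show whether the ganglia differ. The third, 1421727_at, was too dim to be tested.

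The Eya1 probe set 94706_s_at on MG-U74Av2 was bright in every group but did not separate the ganglia. Its signals were 344, 286, 303, 248 and 195 in captured NG neurons, against 224, 167, 249, 242 and 275 in captured DRG neurons, with a log2 difference of 0.23 (SE 0.178, adjusted p = 0.385). In whole ganglia they ranged from 155 to 259 in NG and from 126 to 228 in DRG, with a difference of 0.26 (SE 0.149, adjusted p = 0.195). The dim probe set 94705_at had medians of 33.3 in captured NG, 14.1 in captured DRG, 34.3 in whole NG and 21.5 in whole DRG, all with overlap. The Eya1 difference therefore rested on 1 of 5 probe sets.

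Eya2, another Eya coactivator, was above the brightness limit on MG-U74Av2 only. The signals of 104292_at were 70.7, 32.9, 109, 24.7 and 86.3 in captured NG neurons, against 31.9, 49.8, 13.5, 16.9 and 40.3 in captured DRG neurons. In whole ganglia they ranged from 89.7 to 149 in NG (median 124), against 92.9, 85.3, 81.6, 97.5 and 110.0 in DRG. NG was higher on average in both, with overlap, by 0.81 (SE 0.36, adjusted p = 0.128) and 0.33 (SE 0.134, adjusted p = 0.0619) on the log2 scale. In the joint fit of 4 groups the captured difference passed (0.80, adjusted p = 0.0283), as did 27.4% of all probe sets. It also passed in the 2-group fit without captured NG array 10 (adjusted p = 0.0454), and the whole-ganglion difference passed without DRG array 84 or NG array 39 (adjusted p down to 0.0244) or with array weights (adjusted p = 0.0186). Eya2 was lower in captured than in whole samples, by -0.94 in NG (SE 0.251, adjusted p = 0.00267) and by -1.40 in DRG (SE 0.272, adjusted p = 0.000134). On Mouse430_2 its probe set 1424127_at was near the bottom of each array, with medians of 3.64 in NG and 3.76 in DRG.

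Eya4, known in humans for a form of hearing loss, was not detected above the brightness limit often enough to be tested by any of its 5 probe sets. On MG-U74Av2 the medians of 92453_at lay between 2.02 and 2.48 in all 4 groups. On Mouse430_2 the medians of 1432461_at, 1442542_at, 1456647_a_at and 1456665_at ran from 7.16 to 13.3 in NG and from 3.05 to 19.4 in DRG. With no filter on dim probe sets, 1456665_at was higher in NG by 0.67 (adjusted p = 0.0277), with signals of 2.41 to 29.3 in NG and 1.40 to 8.15 in DRG.

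**Figure D4:**
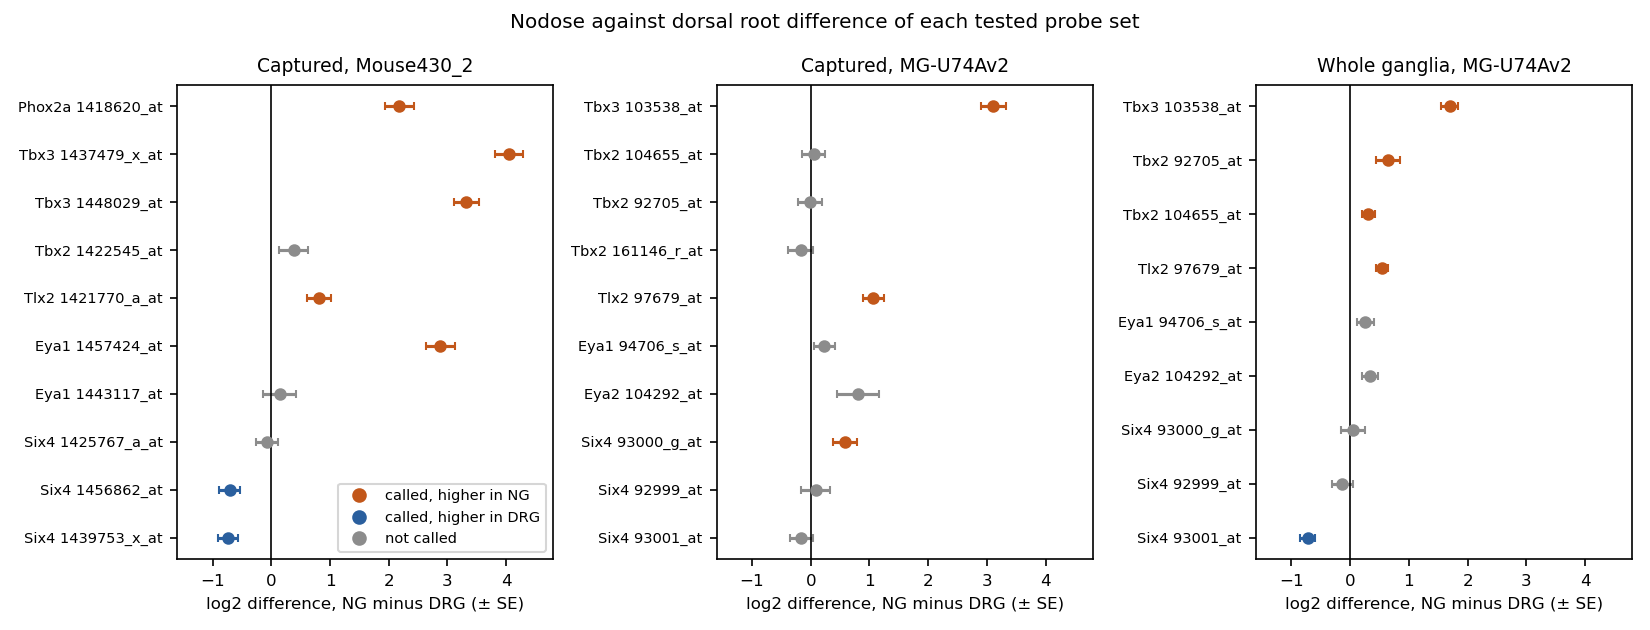
Log2 difference, NG minus DRG, with its standard error for each tested member probe set, in captured neurons on Mouse430_2 (n = 11 and 9), captured neurons on MG-U74Av2 (n = 5 and 5) and whole ganglia (n = 7 and 5). Orange points passed with NG higher, blue points passed with DRG higher and grey points did not pass. Tbx3 lies far to the right in every panel, from 1.69 to 4.05, and Six4 probe sets lie on both sides of 0.

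Six4, a homeodomain partner of Eya proteins, had probe sets that disagreed with each other. On Mouse430_2, 1439753_x_at had signals of 49.2, 94.8 and 110 in captured NG neurons, against 107, 150.3 and 213 in captured DRG neurons, a log2 difference of -0.74 (SE 0.17, adjusted p = 0.00175). The probe set 1456862_at behaved alike (43.1, 91.3 and 116 in NG, against 94.1, 150 and 217 in DRG), at -0.71 (SE 0.179, adjusted p = 0.00443). These 2 correlated with r = 0.943 over the 20 arrays and are not separate evidence. Both lost the call in the sample numbers absent from MG-U74Av2 (-0.41 and -0.32, adjusted p = 0.315 and 0.438). The brightest Six4 probe set, 1425767_a_at, had signals of 132 to 359 in NG and 137 to 349 in DRG and did not differ beyond its spread (-0.08, SE 0.188, adjusted p = 0.82). The fourth, 1427701_a_at, was too dim to be tested.

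In captured neurons on MG-U74Av2 the Six4 probe set 93000_g_at had signals of 56.9, 83.7, 57.2, 64.5 and 76.7 in NG, against 53.5, 34.3, 50.8, 38.6 and 31.6 in DRG. Every NG array was above every DRG array, by a small margin, and the log2 difference of 0.59 (SE 0.198) was just past the threshold (adjusted p = 0.0472). That call was lost in 6 of 10 fits that left out 1 array (NG 7, 10 or 14, DRG 6, 10 or 14, adjusted p up to 0.112), with the Actb ratio as a covariate (adjusted p = 0.33), with no scaling (adjusted p = 0.108) and with no filter on dim probe sets (adjusted p = 0.064). The other probe sets, 92999_at and 93001_at, differed by 0.09 and -0.16 and did not pass. In whole ganglia it was 93001_at that passed, in the opposite direction, with signals of 61.6 (lowest), 78.2 (median) and 94.2 (highest) in NG, against 147, 154, 147, 119 and 126 in DRG. Those groups did not overlap, and the difference was -0.72 (SE 0.126, adjusted p = 0.000267). The probe sets 92999_at and 93000_g_at differed there by -0.13 and 0.05 and did not pass.

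The largest capture difference among the members was that of Six4 92999_at. Its signals were 69.1, 23.1, 50.5, 40.04 and 46.7 in captured NG, against 114 (lowest), 128 (median) and 222 (highest) in whole NG. In DRG they were 49.98, 37.4, 36.9, 28.3 and 55.2 in captured neurons, against 130, 175, 129, 176 and 215 in whole ganglia. Captured samples were lower with no overlap in either ganglion, by -1.52 (SE 0.203, adjusted p = 6.02e-07) in NG and -1.74 (SE 0.22, adjusted p = 4.28e-07) in DRG. The probe set 93000_g_at was lower in captured DRG by -0.79 (SE 0.21, adjusted p = 0.00313), and 93001_at did not pass in either ganglion.

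Counted by probe set, 5 of the 10 members tested on Mouse430_2 were higher in NG and 2 in DRG, against 9.72% and 12.5% of all 28107 probe sets tested. In captured neurons on MG-U74Av2, 3 of 10 were higher in NG and 0 in DRG, against 10.4% and 11.3%. Among 9 tested in whole ganglia, 4 were higher in NG and 1 in DRG, against 19.6% and 15.8%. Without overlap between groups were 4 of the 10 on Mouse430_2 and 3 of the 10 in captured neurons on MG-U74Av2, against 3.84% and 16.3% of all probe sets tested. In whole ganglia they were 3 of the 9 tested, Tbx3 103538_at, Tlx2 97679_at and Six4 93001_at, against 18.1%. Phox2a 92980_at did not overlap there either but was not tested, so it is not counted. The median log2 difference of the tested members was 0.60, 0.16 and 0.31 in these experiments, against -0.05, 0.05 and 0.05 over all probe sets tested. Without whole NG array 73 the count in whole ganglia was 5 as well. These counts leave out the 10, 3 and 4 members that were too dim, and probe sets of 1 gene share a target. Some counted members were chosen for testing through NG, where they were high. In captured neurons on MG-U74Av2, Tbx3 103538_at and Six4 93000_g_at were above the limit on all 5 NG arrays. They were above it on 1 and 2 of 5 DRG arrays. On Mouse430_2, Phox2a 1418620_at, Tbx3 1437479_x_at and Eya1 1457424_at were above it on all 11 NG arrays and on 6, 6 and 7 DRG arrays. So their entry was not separate from their difference.

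Between captured and whole samples, 2 of 11 members tested were higher in captured NG and 3 in whole NG, against 26.2% and 29.2% of all probe sets tested. 1 of those 3 was Phox2a 92980_at (-0.77, SE 0.313, adjusted p = 0.0383), which entered the fit because 4 whole NG arrays and captured NG array 14 were bright enough. On the other captured NG arrays its signals were 7.85 to 14.4, below the receptor median of 15.4 to 18.9, so -0.77 is not an exact fold. The Phox2a call was lost with quantile or median scaling (adjusted p = 0.0746 and 0.0744), no scaling (0.0539) or array weights (0.0774). It was also lost without captured NG array 3, 7, 8 or 10 (up to 0.115), and the difference was -1.08 (adjusted p = 0.00332) without array 14. In DRG, 2 were higher in captured neurons and 5 in whole ganglia, against 22.9% and 24.3%. The 2 higher in captured DRG were the Tbx2 probe sets 92705_at (0.86, SE 0.229, adjusted p = 0.00303) and 161146_r_at (0.59, SE 0.234, adjusted p = 0.0383). With no scaling both calls were lost (0.61, adjusted p = 0.105, and 0.37, adjusted p = 0.322). Besides Tbx3, Eya1 94706_s_at was higher in captured NG by 0.38 (SE 0.159, adjusted p = 0.0447). It lost that call in 9 of 22 fits that left out 1 array (whole NG 20, 23, 26 or 73, whole DRG 19, captured NG 3, 7 or 8, captured DRG 10), with adjusted p up to 0.135, and also with no filter (0.0606), no scaling (0.195) or array weights (0.131). Tbx2 161146_r_at lost its call in 6 of 22 (whole DRG 26, 70 or 84, captured DRG 8, 10 or 14), with adjusted p up to 0.125.

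Other genes of the placode network, a list of 36 that includes Pax, Dach, Sox, Irx and neurogenic factors, had few tested members that passed in captured neurons. On Mouse430_2, 20 were tested, of which Spry1, an inhibitor of receptor tyrosine kinase signalling, was higher in NG (166 ± 31.5 against 91.4 ± 26.05; log2 difference 0.84, SE 0.164, adjusted p = 0.000362). Sox2, also expressed by satellite glia, was higher in DRG (10.8 ± 6.46 in NG against 29.3 ± 5.79; -1.06, SE 0.207, adjusted p = 0.000353). In captured neurons on MG-U74Av2 6 were tested and Sox2 alone passed, at -1.63 (SE 0.277, adjusted p = 0.000706). Whole ganglia had 6 tested, of which 3 passed with NG higher and 0 with DRG higher, led by Neurod1, a neurogenic factor of the basic helix-loop-helix family (75.8 ± 17.7 against 20.1 ± 4.89; 1.45, SE 0.173, adjusted p = 5.29e-06), and Sox2 (464 ± 68.3 against 250.2 ± 41.3; 0.86, SE 0.127, adjusted p = 4.73e-05). Whether the Sox2 difference itself differed between captured neurons and whole ganglia was not tested. Mean signals of Neurod1 in whole ganglia and of Sox2 on Mouse430_2 lay within or below the background gauge. Their differences are therefore not exact folds. With no scaling between arrays Neurod1 alone passed in whole ganglia, and with quantile or median scaling Bmp7 also passed on Mouse430_2. The median log2 difference of the list was -0.07, 0.03 and 0.36 in these experiments.

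Among 26 genes of visceral and autonomic neurons, the directions were mixed. On Mouse430_2, 4 of 13 tested were higher in NG (2 with no scaling) and 3 in DRG. Mab21l2, a developmental regulator, led the first (122 ± 45.95 in NG against 33.3 ± 19.5 in DRG; 1.76, SE 0.26, adjusted p = 1.04e-05), followed by Tlx3, a homeobox relative of Tlx2 (633 ± 313 against 259 ± 81.4; 1.18, SE 0.25, adjusted p = 0.000854). Prdm8 (-1.29, SE 0.193, adjusted p = 1.2e-05) and the zinc finger factor Insm1 (-0.86, SE 0.311, adjusted p = 0.0459) were lower in NG, and Insm1 lost its call with quantile or median scaling. In captured neurons on MG-U74Av2, 2 of 6 were higher in NG and 0 in DRG, Mab21l2 (1.61, SE 0.262, adjusted p = 0.000503) and Isl1, a LIM homeodomain factor (0.69, SE 0.219, adjusted p = 0.0367), and with no scaling Mab21l2 alone passed. Whole ganglia had 9 tested, of which 2 passed with NG higher, Gata3 (1.38, SE 0.199, adjusted p = 3.96e-05) and Mab21l2 (0.78, SE 0.145, adjusted p = 0.000436), and Insm1 was higher in DRG (-0.88, SE 0.166, adjusted p = 0.000529). With no scaling Mab21l2 did not pass there. Its mean DRG signal on Mouse430_2 lay within the background gauge. The median log2 difference of the list was 0.05, 0.27 and 0.17.

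Of 14 further T-box genes, 5 were tested on Mouse430_2 and 1 in each MG-U74Av2 experiment, and 0 passed. Tbx6, tested in all 3, differed by 0.51 (adjusted p = 0.0992), 0.10 (adjusted p = 0.775) and -0.02 (adjusted p = 0.954), and it passed on Mouse430_2 with quantile or median scaling. Whether Tbx3 differed from these genes was not tested.

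Genes with the pattern most like each member were sought among 13972 others over the 20 captured arrays on Mouse430_2, as a description that shares arrays and depth. Without regard to ganglion, Tbx3 (1448029_at) was closest to Sqor, Aldh1l1 and Syt17 (r = 0.973 to 0.967), Eya1 (1457424_at) to Syt17, Ddc and Stom (0.951 to 0.943), and Phox2a to Lypd1, Tpbgl and Grp (0.948 to 0.933). Such values mostly carry the difference between ganglia. After each ganglion's mean was subtracted, the closest were Atp1b2 for Tbx3 (r = 0.742), Sox9 for Eya1 (0.788), Pcsk4 for Phox2a (0.777), Slc25a38 for Tbx2 (0.841), Cfap57 for Tlx2 (0.823) and Ubr2 for Six4 1425767_a_at (0.827). Among the members themselves the highest such values were 0.538 for Phox2a with Tbx2, 0.463 for Tbx3 with Eya1 and 0.406 for Phox2a with Tbx3, and the lowest was -0.274 for Tbx3 with Six4, with Tbx3 read by 1448029_at alone.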

How the data were processed

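The authors deposited linear signal intensity values for each array, and the submitters' processing notes name MAS5, without a version. About 150 captured neurons were used per captured sample per the labels' protocols, which name amplified RNA for MG-U74Av2 and total RNA for Mouse430_2. Each array was scaled to 1 trimmed mean per array type (2% off each end). The pseudocount was the 20th percentile of a fit's values: 7.48 for Mouse430_2, 11 for captured neurons on MG-U74Av2, 11.7 for whole ganglia and 11.4 for the 4 groups fitted together. Control probe sets were left out. Tests used limma 3.58.1 (lmFit and robust, trended eBayes) under R 4.3.3, two-sided, adjusted by Benjamini-Hochberg over all probe sets tested, and were tested on simulated data. Figures used Python 3.11.15 and matplotlib 3.10.9. The number of arrays limits the precision, and detection calls were not used here.

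The members, the gene lists and the marker lists were chosen with earlier results of these data known. Every member probe set is named or counted. Each gene list is illustrated by the genes that passed with the greatest differences, at most 2 for each ganglion, read from the gene's brightest probe set, and where scaling changes a list, the gene concerned. NG and DRG samples that share a number did not vary together (r from -0.154 to 0.155 on Mouse430_2 over 7 numbers and from -0.106 to 0.111 on MG-U74Av2 over 4 numbers), so they were not treated as pairs. Alternatives covered the pseudocount, filter, scaling, array weights, eBayes options, Actb ratio, replicate block, sample subsets and each array left out. Likeness is Pearson's r of log2 values.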

Additional observations from a re-analysis of the deposited data

Results flagged for a closer look

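Among 72 checks of a single array standing far from its group, 3 member probe sets were picked out, and chance alone picks about 1 in 20. Phox2a 92980_at in captured NG array 14 on MG-U74Av2 was at 55.4, against 7.85 to 14.4 on the other 4, a gap of 0.762 of the group's range on the log2 scale. Eya1 94705_at in whole NG array 46 was at 6.79, against 29.3 to 50.3 on the others, a gap of 0.658 of the range. Eya4 92453_at in whole DRG array 70 was at 6.30, against 1.77 to 2.46, a gap of 0.826 of the range, at a level near the bottom of the array. The nodose difference of Tbx3 103538_at was larger in captured neurons than in whole ganglia by 1.40 on the log2 scale (adjusted p = 0.000292, limma), a difference tested as an interaction.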

How the results depend on the processing

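Of 628 results under alternatives other than leaving out an array, 585 kept their side of the threshold, of which 16 did not pass and changed sign, 24 no longer passed and 18 newly passed. 1 called result changed sign, Tbx2 104655_at in whole ganglia at -0.031 with no scaling. Members called in whole ganglia, 5, fell to 2 with no scaling. On Mouse430_2, 7 became 4 over the 6 NG and 4 DRG sample numbers absent from MG-U74Av2. Captured against whole NG, 5, gave 3 with no scaling and with array weights. The interaction, 1, gave 2 with quantile normalization and 3 with the same median or array weights. Leaving out 1 array gave 4 to 6 in whole ganglia, 2 to 3 in captured neurons on MG-U74Av2, 7 to 8 on Mouse430_2, 3 to 5 and 5 to 9 for capture in NG and DRG, and 1 to 2 for the interaction. With the sample number as a replicate block, 2 members passed on MG-U74Av2, where Six4 93000_g_at was lost (0.47, adjusted p = 0.279), and 5 on Mouse430_2, where Six4 1439753_x_at and 1456862_at were lost (adjusted p = 0.0567 and 0.0534); whole ganglia share 1 number, and no paired analysis was possible there because the block could not be fitted. Scaling moved the share of all calls that were higher in NG: in whole ganglia it was 55.3%, 40% with the same median (median shift -0.11) and 11.9% unscaled (-0.35), on Mouse430_2 43.7%, 63.5% (0.14) and 24.4% (-0.13), and in captured neurons on MG-U74Av2 47.9% and 35.4% unscaled. For capture in NG the share higher in captured was 47.3%, 60.9% with the same median (0.16), and in DRG 48.5%, 17.9% unscaled (-0.28). For the interaction it was 42.4%, 59.9% (0.12) and 69.3% (0.28). Before scaling, every whole NG array but array 39 had a lower trimmed mean than all whole DRG arrays. The cause of the changes in these shares was not tested. Tbx3 passed in the same direction under every alternative for NG against DRG in all 3 experiments, as did Phox2a and Eya1 1457424_at on Mouse430_2. Dim signals limit Eya4, Eya2 on Mouse430_2 and Phox2a on MG-U74Av2.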
